A study of Rattus norvegicus with 24 samples.

Results

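Healing of peri-implant bone over time was followed in 12 rats by comparing 6 animals killed at day 28 with 6 other animals killed at day 7, whatever implant the bone had surrounded. Each rat carried implants of both kinds, and the log2 signals of its Li+ array and its Ctrl array were averaged to 1 value per gene, so that the 24 arrays of the series gave 12 animal values. The members were found by the rat number and the day in the array labels, rats 21, 23, 27, 28, 29 and 30 at day 28 and rats 4, 5, 7, 10, 11 and 15 at day 7. Of 36495 probe sets tested, 18511 carried a single gene symbol, and after 1 probe set was kept per gene 18166 named genes were described.

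All animals were male Sprague Dawley rats that had received plugs of the degradable polymer poly(lactide-co-glycolide) (PLGA) in the tibia, loaded with lithium carbonate (Li+) or, for Ctrl, with sodium carbonate. Both days therefore share the drilled defect and the polymer, and no uninjured bone and no site without an implant was among the arrays. A cylinder of bone was cut out around each plug, and its RNA was hybridized to 1 Affymetrix Rat Gene 2.0 ST array. Such a core holds new and old bone, marrow, vessels and, where the cut reaches them, soft tissues, and in a mixed sample fewer cells of a type cannot be told apart from less RNA per cell.

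Healing of a drilled defect in bone is known to begin with a clot and an influx of inflammatory cells. A fibrous and vascular repair tissue follows, in which osteoblasts lay down woven bone. This tissue is later remodelled by osteoclasts and replaced by lamellar bone and marrow. By this general course the days compared here would be placed in the phase of repair tissue and in the phase of remodelling. The tissue on the arrays was not staged.

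Markers of bone cells were well detected: 20 of 21 osteoblast genes, 6 of 7 osteocyte genes and 12 of 12 osteoclast genes measured had a mean signal higher than the probe set median, against 61.2% of all named genes. Lists of other tissues did as well (16 of 16 erythroid and 12 of 13 fat cell genes), so this count does not set bone apart. Among the 12 rats the first principal component held 43.3% of the variance over named genes. Rats of day 28 lay between -5.50 and 29.2 on it and rats of day 7 between -28.5 and 3.21, with rat 28 of day 28 and rat 10 of day 7 on the side of the other day. A second fact of the series concerned skeletal muscle genes. Their mean deviation per gene, over 22 genes on the log2 scale, was 4.38 on the Ctrl array of rat 23, 3.86 on the Li+ array of rat 27 and 2.40 on the Ctrl array of rat 29, all of day 28, against -0.705 to 0.252 on the other 21 arrays. Counts of genes that passed are given also with these 3 arrays dropped, so that the other array stood for the rat, for the lists in which that changed the call or moved the count by more than 1.5 times.

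**Figure D1:**
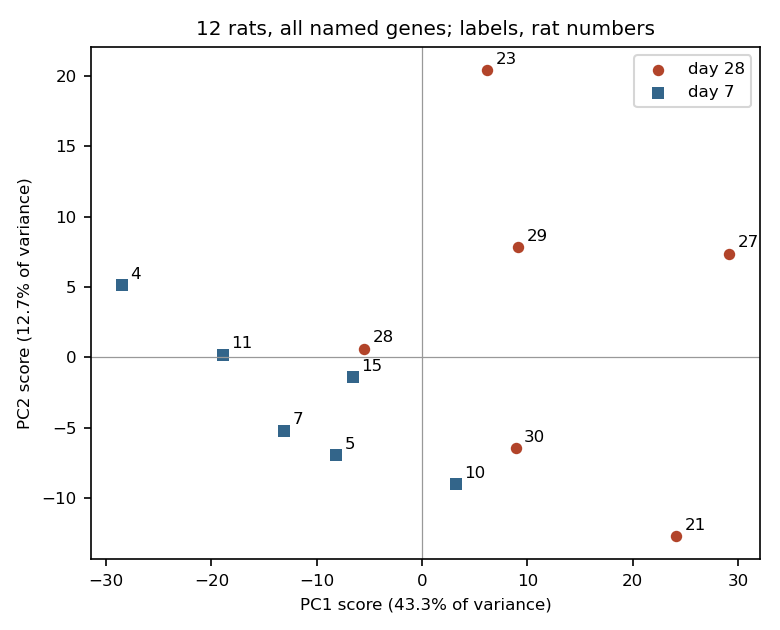
Principal components of the 12 animal values over 18166 named genes, with PC1 (43.3% of the variance) on the horizontal and PC2 (12.7%) on the vertical axis, circles for day 28, squares for day 7 and rat numbers as labels. Rat 28 of day 28 lies among the animals of day 7, and rat 10 of day 7 lies on the side of day 28.

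Between the days, genes of the repair matrix and of chemokine signalling were mostly lower at day 28, with single genes of redox and sugar metabolism, and genes of platelets and B cells were higher. At an adjusted p under 0.05, 254 of 18166 named genes (1.4%) differed. Of these, 74 (0.407%) rose and 180 (0.991%) fell at day 28, while the median change of all named genes was 0.01 on the log2 scale. By sign alone, 10004 named genes were higher and 8162 lower at day 28, the numbers against which sign counts of lists are to be read. At an unadjusted p under 0.05 there were 3976 (21.9%), 1827 (10.1%) higher and 2149 (11.8%) lower, the shares against which the unadjusted counts of lists are to be read. The Methods' unpaired test, run here on the animal means, gave 3949 at an unadjusted p under 0.05, of which 268 (50 higher and 218 lower) had changed at least 1.5-fold. With the Benjamini-Hochberg adjustment added here, which the Methods do not name, it gave 56, and that form is called the adjusted unpaired test. Falls were larger than rises: 73 of the fallen genes and 14 of the risen genes had changed at least 1.5-fold, and 21 and 0 at least 2-fold. The median change was -0.53 among the fallen and 0.43 among the risen genes. In 58 of the risen and 144 of the fallen genes the animals of the days did not overlap, and in the other 52 they did. Over all named genes such separation was seen upward in 205 (1.13%) and downward in 334 (1.84%). These shares, with the 0.407% and 0.991% that passed, are those against which list counts are to be read.

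How many genes passed depended on single animals. Without rat 29, 27, 21, 30 or 23 of day 28 the numbers were 21, 46, 73, 112 and 116. Without rat 7, 4, 11, 5 or 15 of day 7 they were 36, 53, 59, 66 and 73. The number was 780 without rat 28 of day 28 and 619 without rat 10 of day 7, the animals that lay closest to the other day on the first component. With all 24 arrays and the rat as a random block 1411 genes passed, the 254 among them. When the 3 arrays high in muscle genes were dropped, 251 of the 254 passed again among 676, of which 259 (1.43%) were higher and 417 (2.3%) lower at day 28.

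**Figure D2:**
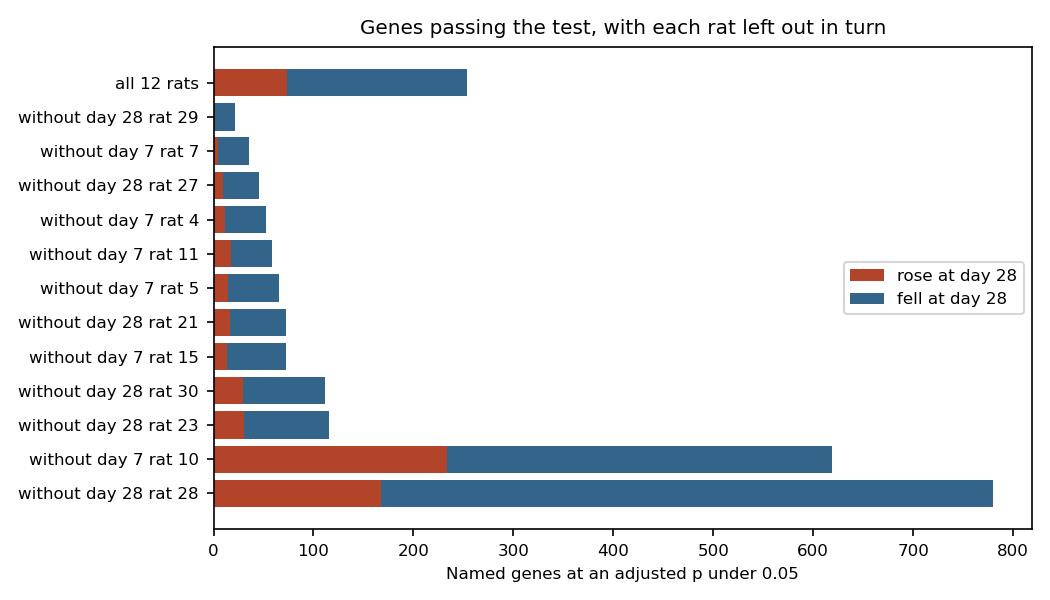
Number of named genes at an adjusted p under 0.05 (horizontal axis), in red those that rose and in blue those that fell at day 28, with all 12 rats and with each rat left out. The number lies between 21 without rat 29 and 780 without rat 28, against 254 with all animals.

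Across the whole set of leave-one-out fits, 21 genes passed in all 12, a criterion chosen after the values were seen. Of these, 20 fell: A2m, Slc7a11, Fbln2, Scimp, Gstm5, Slc2a1, Dsg2, Tgfbi, Fxyd2, Ccbe1, Meis3, Itga5, Doc2a, S100a4, S100a6, Serf1, S100a10, Catsperz, Atp6v0b and Trim46. The one that rose was Rxfp1, the receptor of the hormone relaxin. Its signal was 7.82, 8.03 and 8.62 (lowest, median and highest of 6 rats) at day 28 and 7.01, 7.21 and 7.52 at day 7. All animals of day 28 were above all of day 7, and the change was 0.96 ± 0.14 on the log2 scale (SE, adjusted p = 0.0168).

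**Figure D3:**
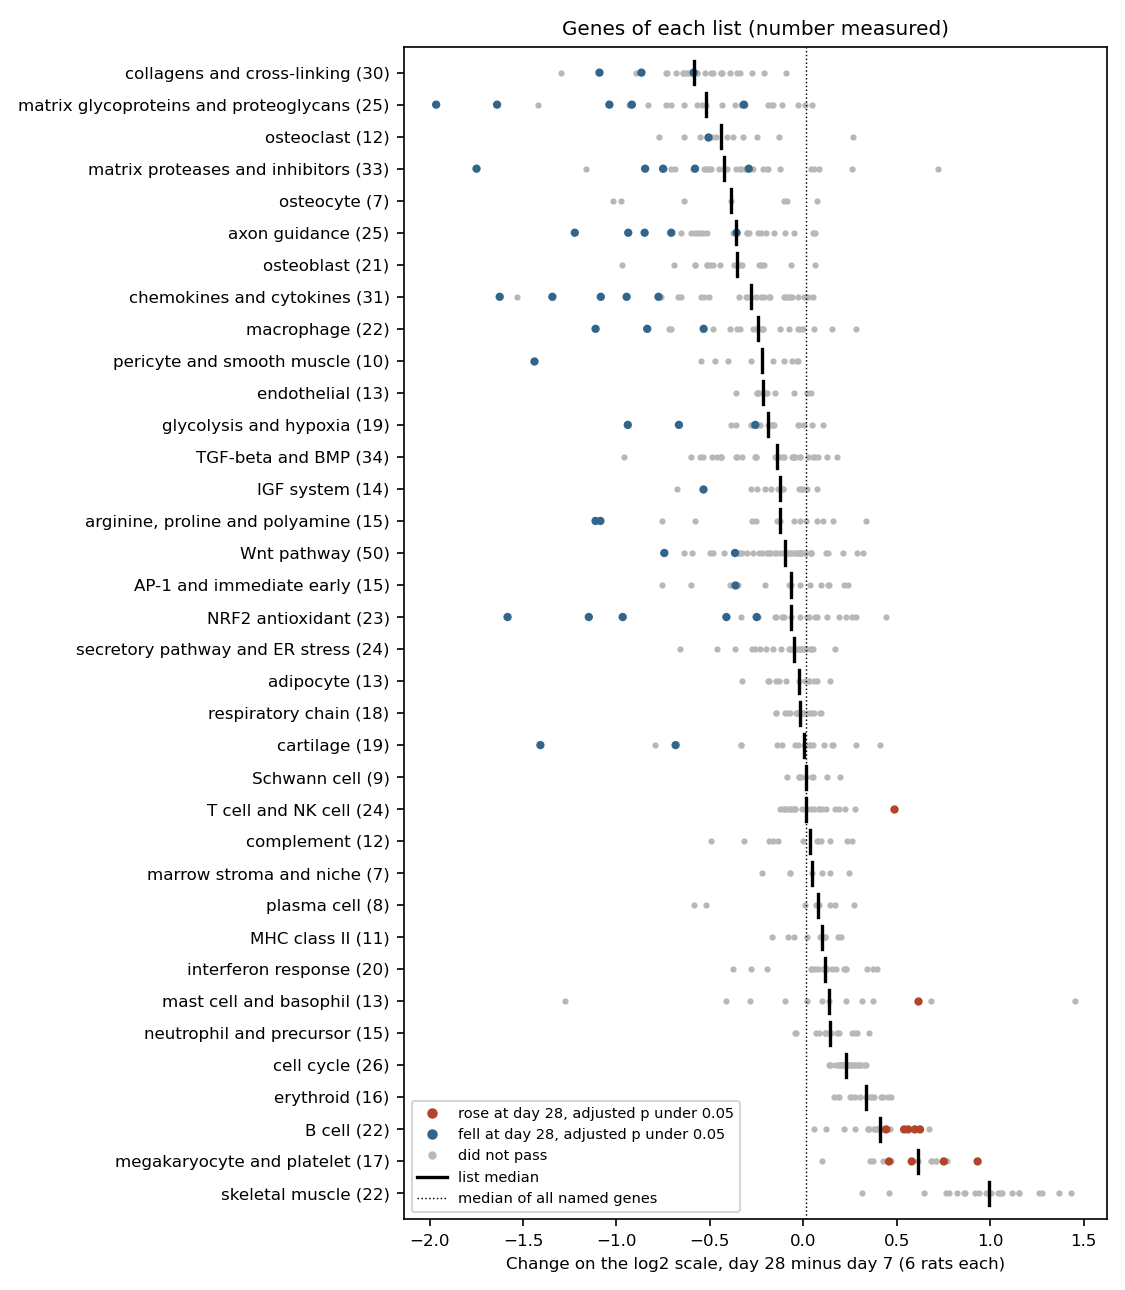
Change of each gene on the log2 scale, day 28 minus day 7 (horizontal axis), for the gene lists in rows with the number of genes measured, ordered by their median (black bar). Red and blue points passed an adjusted p under 0.05 upward and downward, grey points did not, and the dotted line is the median of all named genes at 0.01. Matrix and bone cell lists lie to the left and platelet and B cell lists to the right, and no muscle gene at the bottom passed.

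Collagens and the enzymes that fold and cross-link them were lower at day 28 throughout. Of 30 genes measured, 30 had a negative change, against 8162 of 18166 named genes. The median was -0.59 on the log2 scale against 0.01 over all named genes. By the test 3 fell (Loxl2, P4ha3 and Col5a3), against 0.991% of named genes. In 8 of the 30 all animals of day 28 lay below those of day 7 (against 1.84% of named genes). Loxl2, an enzyme that cross-links collagen, had signals of 8.46, 9.16 and 9.65 (lowest, median, highest) at day 28 and of 9.83, 10.1 and 10.7 at day 7. It was 2.13-fold lower at day 28 (-1.09 ± 0.20, adjusted p = 0.0326). P4ha3, a catalytic subunit of the prolyl hydroxylase that stabilizes the triple helix, changed by -0.87 ± 0.15 (adjusted p = 0.025). Col5a3, a chain of the fibril-regulating type V collagen, changed by -0.59 ± 0.11 (adjusted p = 0.0322). Neither gene's animals overlapped between the days.

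Better-known members did not pass. Lox, the founding lysyl oxidase, had signals of 9.06, 10.5 and 10.8 at day 28 and of 11.0, 11.5 and 11.95 at day 7, with no overlap, at an adjusted p of 0.0529 that was 0.0371 with the 3 muscle-high arrays dropped. Col3a1, the collagen of early fibrous tissue, changed by -0.74 ± 0.20 (adjusted p = 0.0897). The chains of bone collagen, named here after their values were seen, differed little: Col1a1 had signals of 12.9, 13.5 and 13.5 at day 28 and of 13.4, 13.5 and 13.7 at day 7, and Col1a2 changed by -0.27 ± 0.13. Both overlapped between the days (adjusted p = 0.344 and 0.287). The number of collagen list genes that passed was 0 without rats 5, 7, 11 or 29, 1 without rats 4, 15, 21 or 27, 2 without rat 23, 3 without rat 30, 4 without rat 10 and 13 without rat 28. It was 6 with the muscle-high arrays dropped.

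Among the non-collagenous matrix proteins, 23 of 25 were lower and 2 higher at day 28, with a median of -0.52. By the test 5 fell (against 0.991% of named genes). Aspn, the collagen-binding proteoglycan asporin, showed the largest fall of all genes that passed. Its signals were 8.14, 8.94 and 10.8 at day 28 and 10.5, 11.3 and 11.8 at day 7, 3.9-fold lower at day 28 (-1.97 ± 0.40, adjusted p = 0.0424), and the highest animal of day 28 overlapped the lowest of day 7. Aspn passed in 3 of 12 fits with a rat left out. Tnn, a tenascin of the osteogenic matrix, had signals of 7.85, 8.94 and 9.86 at day 28 and of 10.1, 10.6 and 11.1 at day 7 (-1.64 ± 0.30, adjusted p = 0.0326).

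Smaller spreads accompanied the glycoproteins Fbln2 and Tgfbi. Fbln2, fibulin-2 of elastic fibres and basement membranes, had signals of 7.40, 7.63 and 7.68 at day 28 and of 8.37, 8.54 and 9.04 at day 7. Tgfbi, an integrin-binding protein induced by TGF-β, had signals of 9.98, 10.2 and 10.3 at day 28 and of 10.8, 11.1 and 11.3 at day 7. The changes were -1.04 ± 0.11 and -0.92 ± 0.09, both at an adjusted p of 0.0041, the smallest of the comparison, and no animal overlapped. Fn1, fibronectin, fell by 0.32 on the log2 scale (SE 0.06, adjusted p = 0.03). Itga5, which encodes the α subunit of the fibronectin receptor and was named after its values were seen, had signals of 9.93, 10.2 and 10.3 at day 28 and of 10.6, 10.7 and 10.9 at day 7 (-0.58 ± 0.07, adjusted p = 0.00873). Of the list 2 genes passed without rat 4, 5, 7, 11, 21, 27 or 29, 3 without rat 15 or rat 30 and 8 without rat 28, and 9 with the muscle-high arrays dropped.

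Proteases that clear matrix, together with their inhibitors, had a median change of -0.42, with 28 of 33 lower at day 28. By the test 5 fell (against 0.991% of named genes). A2m, the broad protease inhibitor α2-macroglobulin, had signals of 7.34, 7.55 and 8.13 at day 28 and of 8.93, 9.35 and 9.90 at day 7. It was 3.36-fold lower at day 28 without overlap (-1.75 ± 0.19, adjusted p = 0.0041). Plat, tissue plasminogen activator, fell 1.8-fold (adjusted p = 0.0326). Mmp3, or stromelysin-1, had signals of 6.24, 6.50 and 6.79 at day 28 and of 6.95, 7.17 and 7.89 at day 7 (-0.75 ± 0.15, adjusted p = 0.0407). Its mean signal of 6.87 lay below the probe set median of 7.31. Mmp19 and the membrane protease Adam19 changed by -0.58 ± 0.12 and -0.29 ± 0.06. Mmp13, the main collagenase of rat bone and named after its values were seen, changed by -0.19 ± 0.09 and Mmp2, gelatinase A, by -0.69 ± 0.20, at adjusted p of 0.307 and 0.105. Without rat 28 of day 28 14 genes of this list passed, without rat 10 of day 7 7, without rat 5 or rat 30 2, and without rat 4, 7, 11, 15, 21, 27 or 29 1. With the muscle-high arrays dropped 9 passed.

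The genes that mark bone cells were also mostly lower at day 28, though Clcn7 alone passed. Of 21 osteoblast genes 20 were lower, with a median of -0.36, and 0 passed by limma. By an unadjusted p under 0.05 there were 13, all lower (11.8% of all named genes were), and 0 passed the adjusted unpaired test. Sp7, or osterix, the transcription factor that osteoblasts need, had signals of 8.45, 9.30 and 9.49 at day 28 and of 9.38, 9.61 and 10.3 at day 7 (-0.58 ± 0.19, adjusted p = 0.142). Ifitm5, a membrane protein of mineralizing osteoblasts, changed by -0.69 ± 0.21 and Bglap, osteocalcin (named after its values were seen), by -0.35 ± 0.14. The osteoblast list score, the mean deviation of its genes from their mean over 12 rats, was -0.70, -0.02 and 0.12 (lowest, median, highest) at day 28 and -0.07, 0.17 and 0.59 at day 7. Rats 21 and 27 of day 28 lay lowest, and the other 4 animals of day 28 lay within the range of day 7.

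Osteocyte genes had a median of -0.39 with 0 of 7 passing (3 lower at an unadjusted p under 0.05, 0 by the adjusted unpaired test). Without rat 10 of day 7 2 passed, and without rat 28 of day 28 1. Phex, an endopeptidase of osteocytes that governs phosphate, changed by -1.02 ± 0.29 (adjusted p = 0.102), and Pdpn, podoplanin of young osteocytes, by -0.98 ± 0.23 (adjusted p = 0.0589, and 0.0442 with the muscle-high arrays dropped). Of 17 osteoclast genes listed 12 were measured, and Acp5, Dcstamp, Ocstamp, Nfatc1 and Itgb3 were not. The measured genes had a median of -0.44 with 11 of 12 lower, and Clcn7, the chloride-proton exchanger of the resorbing membrane, fell. Its signals were 9.56, 9.98 and 10.2 at day 28 and 10.2, 10.4 and 10.6 at day 7, without overlap (-0.51 ± 0.11, adjusted p = 0.0463), and it passed in 2 of 12 fits with a rat left out. Tcirg1, a proton pump subunit of osteoclasts, also passed with the muscle-high arrays dropped (adjusted p = 0.0434).

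Cartilage genes had a median of 0.00 over 19 genes, of which 12 lay below the median signal, and of -0.33 over the others. Acan and Prg4 fell, in 3 and 2 of 12 fits with a rat left out (neither without rat 4, 5, 7, 11, 15, 21, 27, 29 or 30). Acan, aggrecan, the large proteoglycan of cartilage that repair tissue can also make, had signals of 7.93, 9.03 and 9.85 at day 28 and of 9.95, 10.3 and 10.7 at day 7. It was 2.65-fold lower at day 28 (-1.41 ± 0.27, adjusted p = 0.0378). Prg4, lubricin of joint surfaces, was 1.61-fold lower, with overlapping animals. Tagln, transgelin of smooth muscle cells and contractile fibroblasts, was the only one of 10 pericyte and smooth muscle genes to pass. Its signals were 8.46, 9.02 and 9.63 at day 28 and 10.1, 10.5 and 11.0 at day 7 (-1.44 ± 0.23, adjusted p = 0.0182).

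**Figure D4:**
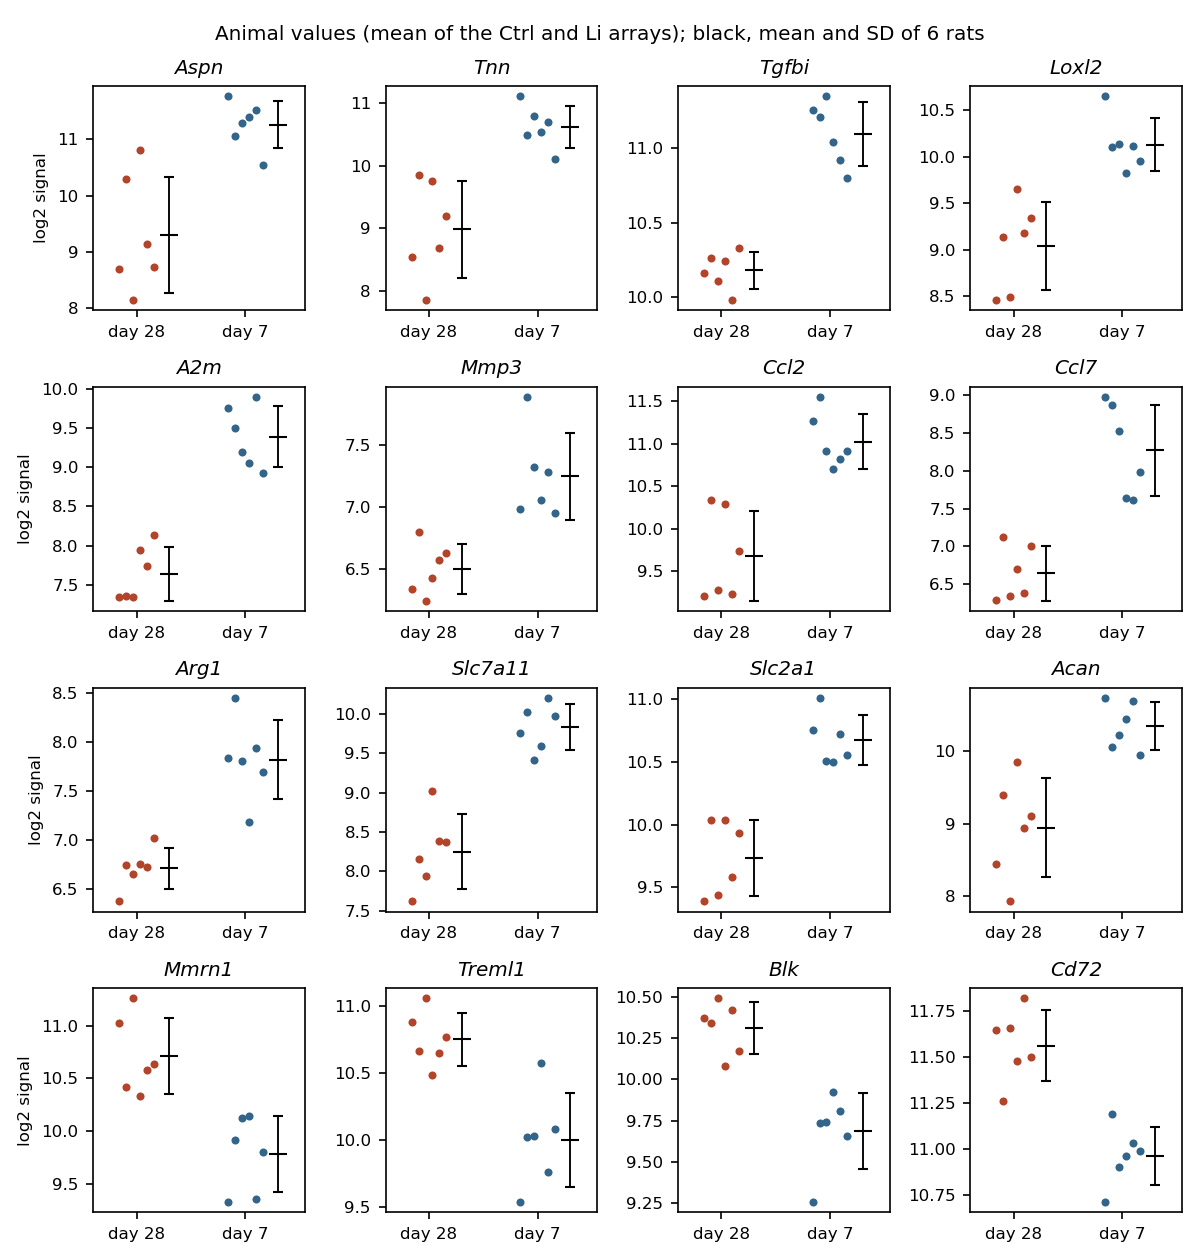
Log2 signal (vertical axes) of 16 genes in each rat, day 28 in red on the left and day 7 in blue on the right of each panel, with the mean and SD of 6 rats in black. Animals of the days overlap for Aspn and Treml1 and are apart for the other 14 genes.

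Signals that draw and hold monocytes were lower at day 28. Of 31 chemokines and cytokines 27 were lower, with a median of -0.28, and 5 fell (against 0.991% of named genes). Ccl2, the chief monocyte attractant, had signals of 9.21, 9.51 and 10.3 at day 28 and of 10.7, 10.9 and 11.5 at day 7, 2.54-fold lower at day 28 (-1.34 ± 0.22, adjusted p = 0.0221). Ccl7, which acts on the same receptor, had signals of 6.30, 6.54 and 7.12 at day 28 and of 7.62, 8.25 and 8.97 at day 7 (-1.62 ± 0.25, adjusted p = 0.0182). For both the days did not overlap, and they passed in 8 and 10 of 12 fits with a rat left out. Ccl3, a chemokine of macrophages and osteoclast precursors, changed by -1.08 ± 0.21 with overlapping animals (adjusted p = 0.04).

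The cytokine antagonists Il1rn and Il18bp were also lower at day 28, and passed in 11 and 3 of 12 fits with a rat left out. Il1rn, the antagonist of the interleukin-1 receptor, had signals of 10.7, 10.9 and 11.3 at day 28 and of 11.5, 11.6 and 12.1 at day 7 (-0.78 ± 0.12, adjusted p = 0.0168). Il18bp, which neutralizes interleukin-18, changed by -0.95 ± 0.17 (adjusted p = 0.0311). Rat 28, at 10.25, was its highest animal of day 28 and above the lowest of day 7. The cytokine Il1b changed by -0.66 ± 0.22 and the neutrophil chemokine Cxcl2 by -1.53 ± 0.56, and neither passed (adjusted p = 0.154 and 0.174). Cxcl2 had signals of 6.56, 6.99 and 7.63 at day 28 and of 6.83, 8.34 and 11.3 at day 7, so that its spread lay at day 7. Of this list 0 genes passed without rat 29 of day 28, 1 without rat 7 of day 7, 2 without rat 27, 3 without rat 4, 5, 11, 15, 23 or 30, and 7 without rat 28. With the muscle-high arrays dropped 8 passed.

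Macrophage genes had a median of -0.24 with 19 of 22 lower. Arg1, arginase-1 of alternatively activated macrophages, had signals of 6.37, 6.73 and 7.02 at day 28 and of 7.19, 7.82 and 8.45 at day 7 (-1.11 ± 0.17, adjusted p = 0.0168), with no overlap. Its mean signal of 7.27 lay below the probe set median of 7.31. Msr1, a scavenger receptor, and Lgmn, a lysosomal protease, changed by -0.84 ± 0.16 and -0.53 ± 0.11. Apoe, the lipid carrier, had a change of -0.72 ± 0.20 that did not pass (adjusted p = 0.0915). Of the macrophage list 7 genes passed without rat 28, 0 without rat 29 and 1 without rat 4, 5, 7, 11, 15, 21, 23 or 30. Among 15 genes of arginine, proline and polyamine metabolism (median -0.12) Arg1 and Slc7a2 fell, in 11 and 2 of 12 fits with a rat left out. Of this list 0 genes passed without rat 29, 2 without rat 28, 3 without rat 10 and 1 without any of the other rats. Slc7a2, a transporter that brings arginine into cells, had signals of 9.18, 9.71 and 10.1 at day 28 and of 10.1, 10.6 and 11.3 at day 7 (-1.09 ± 0.20, adjusted p = 0.0326). Interferon response genes (0 of 20), class II antigen presentation (0 of 11) and complement (0 of 12) had no gene that passed by limma or by the adjusted unpaired test. At an unadjusted p under 0.05 these lists had 2, 0 and 5 genes (of all named genes 21.9%). Without rat 28 of day 28 1 complement gene passed.

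Genes controlled by the antioxidant factor NRF2 split, with 13 of 23 lower and 10 higher and a median of -0.06. By the test 5 fell (against 0.991% of named genes). Slc7a11, the cystine importer that feeds glutathione synthesis, had signals of 7.62, 8.27 and 9.03 at day 28 and of 9.42, 9.87 and 10.2 at day 7. It was 3-fold lower at day 28 without overlap (-1.58 ± 0.20, adjusted p = 0.0107), in all 12 leave-one-out fits. Akr1b8, an aldo-keto reductase, and Gstm5, a glutathione transferase, were 2.22-fold and 1.95-fold lower (adjusted p = 0.0302 and 0.0144). Hmox1, which breaks down haem, and the peroxide scavenger Prdx1 changed by -0.41 ± 0.07 and -0.25 ± 0.05. The number of these genes that passed was 2 without rats 5, 7, 23, 27 or 29, 3 without rats 4, 11, 15 or 21, and 6 without rat 28. With the muscle-high arrays dropped 5 fell, and Gstm1, named after its values were seen, passed as higher (adjusted p = 0.0442).

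The promoters of fallen genes are shown where they hold the binding motif of a factor known for the group, as background to the counts. NRF2 binds the antioxidant response element, TGACNNNGC, which was searched on both strands in the 250 bases before the start site (RefSeq, GRCr8). It was present in 2 of the 4 fallen NRF2 genes with a promoter in the table (Gstm5 and Prdx1), in 5 of 19 genes of the list and in 10.2% of all 27457 promoters. Capitals mark the motif in the lines that follow, written 5′ to 3′ along the gene, at chr2:198219519-198219768 (+) and chr5:135383656-135383905 (+).
Gstm5: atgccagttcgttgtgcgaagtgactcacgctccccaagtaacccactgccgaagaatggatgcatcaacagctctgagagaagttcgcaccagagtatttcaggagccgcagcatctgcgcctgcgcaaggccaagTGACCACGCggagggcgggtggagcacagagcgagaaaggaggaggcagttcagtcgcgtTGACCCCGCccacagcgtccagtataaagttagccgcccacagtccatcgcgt
Prdx1: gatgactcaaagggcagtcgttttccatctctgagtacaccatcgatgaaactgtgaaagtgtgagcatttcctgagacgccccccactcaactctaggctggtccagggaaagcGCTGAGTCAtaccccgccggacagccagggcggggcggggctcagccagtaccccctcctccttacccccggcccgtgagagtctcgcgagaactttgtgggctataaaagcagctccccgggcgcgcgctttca
The AP-1 motif TGANTCA was present in 2 of the 8 fallen matrix genes with a promoter in the table, Mmp3 and Adam19, in 8 of 60 genes of the matrix lists and in 6.36% of all promoters. The Mmp3 promoter is shown because its AP-1 site is a textbook example (chr8:12925031-12925280, +).
Mmp3: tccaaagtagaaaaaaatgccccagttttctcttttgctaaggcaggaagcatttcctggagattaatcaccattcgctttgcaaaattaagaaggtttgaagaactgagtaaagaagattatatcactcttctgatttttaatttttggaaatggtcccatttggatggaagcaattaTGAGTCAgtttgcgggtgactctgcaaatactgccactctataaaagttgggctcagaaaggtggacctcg
The GATA motif AGATAA was found in 0 of the 4 risen platelet genes, in 3 of 11 genes of that list and in 10.0% of all promoters. A match of letters is a description and not a bound site, and these counts were not tested.

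Transcripts of a glucose and of a lactate transporter were lower at day 28. Slc2a1, the glucose transporter GLUT1, had signals of 9.39, 9.76 and 10.0 at day 28 and of 10.5, 10.6 and 11.0 at day 7, 1.92-fold lower at day 28 (-0.94 ± 0.13, adjusted p = 0.0144). Slc16a3, the lactate exporter of glycolytic cells, changed by -0.67 ± 0.12 (adjusted p = 0.0303) and Pfkp, a phosphofructokinase, by -0.26 ± 0.05 (adjusted p = 0.0407). These were 3 of 19 glycolysis and hypoxia genes (against 0.991% of named genes that fell), whose median was -0.19 with 16 lower. The number was 5 without rat 28 and 1 without rat 5, 7, 11, 21, 27, 29 or 30. Respiratory chain genes had a median of -0.02 with 0 of 18 passing, 2 lower at an unadjusted p under 0.05 and 0 by the adjusted unpaired test. Genes of the secretory pathway and its stress response had a median of -0.05 with 0 of 24 passing by either test (9 lower and 1 higher at an unadjusted p under 0.05). Without rat 10 of day 7 3 of them passed, and without rat 28 of day 28 3. With the muscle-high arrays dropped Kdelr3, Sec61a1 and Sec23a of this list passed as lower (adjusted p = 0.0335, 0.0358 and 0.0474), and of the respiratory chain Sdhb did (0.0329). These genes are named after their values were seen.

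Guidance cues and their receptors, which steer axons and also vessels and bone cells, had a median of -0.36 with 23 of 25 lower. By the test 5 fell (against 0.991% of named genes). Sema3c, a secreted semaphorin, had signals of 7.60, 8.13 and 9.15 at day 28 and of 8.98, 9.58 and 9.86 at day 7 (-1.22 ± 0.24, adjusted p = 0.0369). Sema3a, a semaphorin made by osteoblasts and neurons, was 1.63-fold lower without overlap, and Nrp1, its co-receptor, 1.28-fold lower with overlap. Met, the receptor of hepatocyte growth factor, had signals of 8.31, 8.55 and 9.03 at day 28 and of 9.02, 9.53 and 9.86 at day 7 (-0.94 ± 0.14, adjusted p = 0.0168), and the ephrin receptor Epha3 changed by -0.85 ± 0.18. Of this list 0 genes passed without rat 29, 2 without rat 23 or rat 30, 8 without rat 10 and 1 without rat 4, 5, 7, 11, 15, 21 or 27. With the muscle-high arrays dropped 8 passed. Endothelial genes had a median of -0.21 with 0 of 13 passing by limma or the adjusted unpaired test (8 lower at an unadjusted p under 0.05).

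In the growth factor and related signalling lists few genes passed. Of Wnt, IGF and AP-1 and immediate early genes 4%, 7.14% and 6.67% fell, and 0% of TGF-β and BMP genes. Of all named genes 0.991% fell. At an unadjusted p under 0.05, 15 Wnt genes were lower and 3 higher (11.8% and 10.1% of all named genes). Of 50 Wnt genes 40 were lower, with a median of -0.10, and the receptor Fzd2 and Fosl1 fell, a subunit of the factor AP-1 and the only one of 15 AP-1 and immediate early genes to pass. Fzd2 had signals of 7.15, 7.59 and 8.04 at day 28 and of 8.16, 8.27 and 8.68 at day 7 (-0.74 ± 0.15, adjusted p = 0.0413), and Fosl1 changed by -0.37 ± 0.07 with overlap. Both calls were lost without any of the rats 4, 5, 7, 15, 21, 27, 29 or 30, and 6 Wnt genes passed without rat 28 and with the muscle-high arrays dropped. In the TGF-β and BMP list 28 of 34 were lower, with a median of -0.14. In it 0 passed by limma or the adjusted unpaired test (12 lower and 1 higher at an unadjusted p under 0.05). Without rat 10 of day 7 3 genes of this list passed, and without rat 28 of day 28 2. Tgfb2, a TGF-β ligand, had signals of 7.91, 8.81 and 9.20 at day 28 and of 9.25, 9.59 and 9.92 at day 7, apart between the days at an adjusted p of 0.0551. With the muscle-high arrays dropped it passed (adjusted p = 0.0452), as did the receptor Tgfbr1 (0.0464), named after its values were seen. Igf2r, the receptor that clears IGF-2 and sorts lysosomal enzymes, changed by -0.54 ± 0.11 and was the only one of 14 IGF genes to pass.

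Of 37 measured genes that the study names over time, and which were chosen on these arrays, 15 fell, 1 rose and 21 did not pass. The Wnt genes Ctnnb1, Dkk1, Lrp5 and Sfrp5 were among those that did not pass. At an unadjusted p under 0.05, 34 of the 37 were lower and 2 higher. The number that passed was 1 without rat 29, 3 without rat 7, 4 without rat 4 or rat 27 and 5 without rat 5, 15 or 21. It was 6 without rat 11 or rat 30, 9 without rat 23 and 26 without rat 28. Among those not yet described, Pdgfa, a growth factor for mesenchymal cells, was 1.86-fold lower at day 28, Nrep, a protein of healing wounds, 1.68-fold lower and Anxa5, a phospholipid-binding annexin, 1.6-fold lower. Prkca, a protein kinase C, had signals of 10.6, 10.8 and 11.0 at day 28 and of 10.2, 10.4 and 10.4 at day 7 (0.44 ± 0.08, adjusted p = 0.0326) and was the one that rose.

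Genes of megakaryocytes and platelets were higher at day 28. All 17 measured had a positive change, with a median of 0.61, and 4 rose (against 0.407% of named genes). Mmrn1, multimerin of platelet granules, had signals of 10.3, 10.6 and 11.3 at day 28 and of 9.32, 9.86 and 10.1 at day 7, 1.91-fold higher at day 28 (0.93 ± 0.19, adjusted p = 0.0409). Treml1, a receptor of α-granules, had signals of 10.5, 10.7 and 11.1 at day 28 and of 9.54, 10.0 and 10.6 at day 7 (0.75 ± 0.15, adjusted p = 0.04), with the lowest animal of day 28 below the highest of day 7. Rab27b, which serves granule release, and P2ry1, a receptor of ADP, changed by 0.58 ± 0.12 and 0.46 ± 0.07 without overlap. The number was 10 with the 3 muscle-high arrays dropped, 13 without rat 10 of day 7, 9 without rat 28, 2 without rat 23, 0 without rat 29 and 1 without any of the other rats.

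B cell genes followed the same direction. All 22 measured were higher, with a median of 0.41, and 5 rose (against 0.407% of named genes). Blk, a B cell tyrosine kinase, had signals of 10.1, 10.4 and 10.5 at day 28 and of 9.26, 9.74 and 9.92 at day 7 (0.62 ± 0.10, adjusted p = 0.0234). Cd72, a B cell co-receptor, had signals of 11.3, 11.6 and 11.8 at day 28 and of 10.7, 11.0 and 11.2 at day 7 (0.60 ± 0.10, adjusted p = 0.0209). Neither overlapped between the days. Fcmr, the IgM receptor, Pou2af1, a B cell co-activator, and Cr2, a complement receptor, were 1.48-fold, 1.45-fold and 1.36-fold higher, the last pair with overlap. Fcrl1, a B cell surface protein outside the list, rose by 0.44 ± 0.07 (adjusted p = 0.0201). Of the list 13 genes passed with the muscle-high arrays dropped, 11 without rat 28, 8 without rat 10, 3 without rat 4, 5, 21 or 30, 2 without rat 15, 1 without rat 27 and 0 without rat 7 or rat 29. The list score was -0.03, 0.24 and 0.37 at day 28 and -0.46, -0.17 and -0.03 at day 7.

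**Figure D5:**
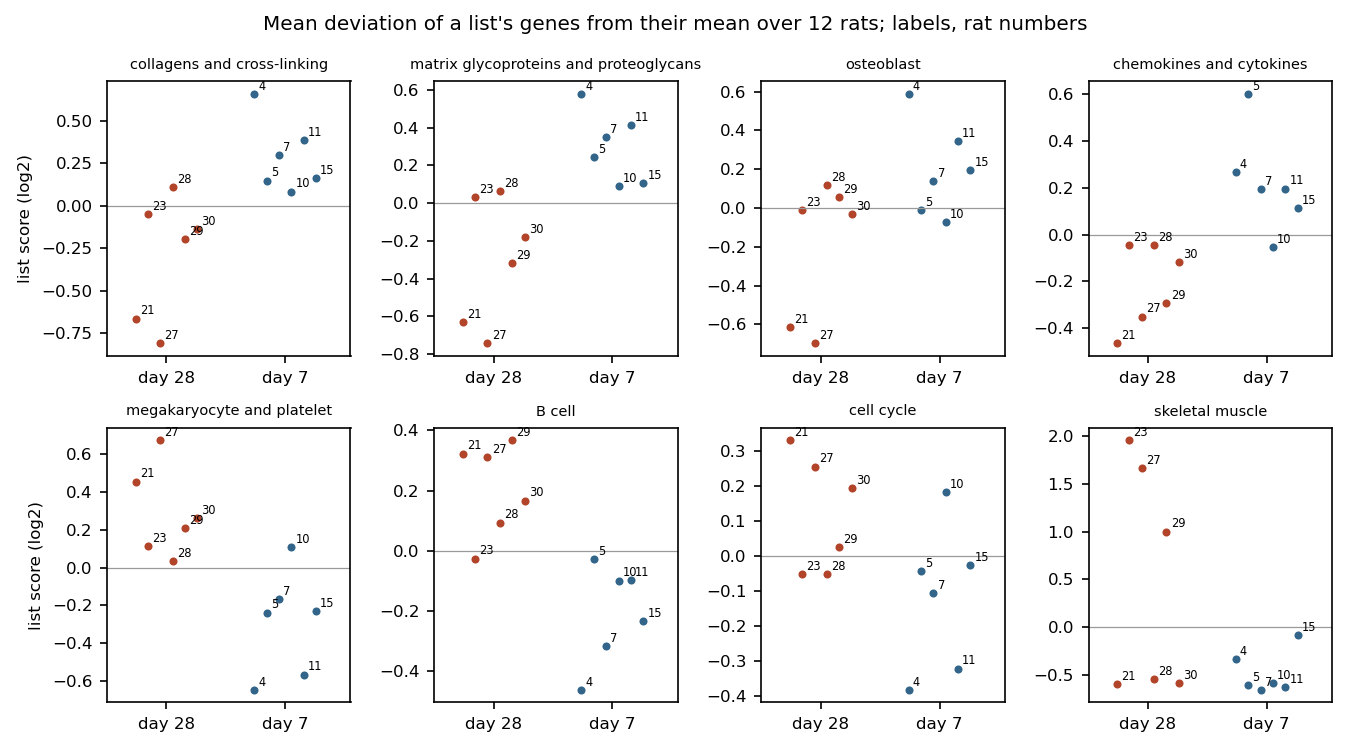
List score of each rat (vertical axes, log2 scale: the mean deviation of a list's genes from their mean over the 12 rats), day 28 in red on the left and day 7 in blue on the right, with rat numbers. Rats 21 and 27 are the lowest animals for collagens, matrix glycoproteins and osteoblast genes, and the muscle score is high in rats 23, 27 and 29 of day 28.

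Other blood lineages gave 2 genes that passed. Btla, an inhibitory receptor of B and T cells, was 1.4-fold higher and the only one of 24 T and NK cell genes to pass, in a list whose median was 0.02. Hdc, the enzyme that makes histamine in mast cells and basophils, had signals of 9.04, 9.70 and 9.91 at day 28 and of 8.85, 8.99 and 9.13 at day 7 (0.61 ± 0.13, adjusted p = 0.0476). It was the only one of 13 mast cell and basophil genes to pass, in a list with a median of 0.14, 9 members higher and 4 lower. The proteases of this list differed in sign: Prss34 changed by 1.45 ± 0.46 (adjusted p = 0.126), and Mcpt1, named after its values were seen, by -1.28 ± 0.31 (adjusted p = 0.0662) with all animals of day 28 below those of day 7. Erythroid genes were higher in 16 of 16 with a median of 0.33, and cell cycle genes in 26 of 26 with a median of 0.23. By sign 10004 of all named genes were higher. In both lists 0 passed by limma and by the adjusted unpaired test. At an unadjusted p under 0.05 there were 10 and 12 (10.1% of all named genes were higher). Without rat 10 of day 7 1 gene of each list passed, and without rat 28 of day 28 1 cell cycle gene. Gata1, the erythroid and megakaryocyte transcription factor, had signals of 10.1, 10.4 and 10.7 at day 28 and of 9.37, 9.95 and 10.7 at day 7. Top2a and Kif11, which act on chromosomes and the spindle of dividing cells, changed by 0.30 ± 0.08 and 0.33 ± 0.10 and passed with the muscle-high arrays dropped (adjusted p = 0.0457 and 0.0499). Neutrophil genes had a median of 0.14 with 0 of 15 passing (2 higher at an unadjusted p under 0.05, where 10.1% of all named genes were, 0 by the adjusted unpaired test). Plasma cell genes had a median of 0.08 with 0 of 8 passing by either test, and at an unadjusted p under 0.05 1 was higher and 2 were lower. The lower ones were Prdm1, a regulator of plasma cell fate, and Sdc1, syndecan-1, named here after their values were seen, with changes of -0.58 ± 0.15 and -0.52 ± 0.14. Both passed as lower with the muscle-high arrays dropped (adjusted p = 0.0383 and 0.0462). Without rat 28 of day 28 2 plasma cell genes passed. Marrow stroma genes had a median of 0.04 with 0 of 7 passing by either test (1 higher and 1 lower at an unadjusted p under 0.05).

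Skeletal muscle genes had a median of 0.99, the highest of any list, and 0 of 22 passed (13 at an unadjusted p under 0.05, 0 by the adjusted unpaired test). Mb, myoglobin, had signals of 7.00, 8.32 and 10.3 at day 28 and of 6.88, 6.92 and 7.59 at day 7. Ttn, titin, had 6.26, 7.74 and 9.46 at day 28 and 6.01, 6.24 and 7.14 at day 7. The muscle list median was -0.04 with the 3 arrays dropped, while the medians of collagens, platelets and B cells were then -0.64, 0.67 and 0.45. The part of muscle tissue in other results was not tested further. With rats 23, 27 and 29 left out whole, 0 genes passed by limma (2304 named genes at an unadjusted p under 0.05, smallest adjusted p over all probe sets 0.0688). Fat cell and Schwann cell genes, which a bone core can also hold, had medians of -0.03 and 0.01 with 0 passing (0 of 13 and 0 of 9 at an unadjusted p under 0.05, 0 by the adjusted unpaired test). Without rat 28 of day 28 1 fat cell gene passed.

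Genes outside the lists completed the largest changes. C1qtnf3, a secreted C1q and TNF related protein, had signals of 6.31, 7.25 and 8.02 at day 28 and of 8.17, 8.68 and 9.91 at day 7, 3.26-fold lower at day 28 (-1.71 ± 0.31, adjusted p = 0.0326). Rab15, an endosomal GTPase, Clec2dl1 and Angptl2, a secreted angiopoietin-like protein, were 2.85-fold, 2.4-fold and 2.13-fold lower. The largest rise of the genes that passed was that of Prss29-ps1, a serine protease pseudogene by its name, with signals of 8.98, 9.61 and 9.97 at day 28 and of 7.87, 8.71 and 9.09 at day 7 (0.99 ± 0.21, adjusted p = 0.0476). Probes of a pseudogene can also match related genes, so this signal is uncertain in its source.

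Other large rises were smaller than 2-fold. Sh2d1b2, an adaptor known from mouse NK cells, had signals of 8.87, 9.23 and 9.50 at day 28 and of 7.78, 8.31 and 8.86 at day 7 (0.93 ± 0.19, adjusted p = 0.0407). The calmodulin-binding Nrgn was 1.69-fold higher and the kelch protein Klhl14 1.56-fold higher. Fmo2, a flavin monooxygenase, and Irag1, a target of cGMP-dependent kinase in platelets and smooth muscle, were 1.54-fold and 1.53-fold higher. Prkcq, a protein kinase C of T cells and platelets, and Prkar2b, a regulatory subunit of protein kinase A, were both 1.51-fold higher. Cabcoco1 rose by 0.36 ± 0.06 with one of the smallest p of the rises (adjusted p = 0.0169). Of these 8 genes, Nrgn and Prkar2b had overlapping animals between the days. Among 9 housekeeping genes Gusb, a lysosomal β-glucuronidase, fell by 0.34 on the log2 scale (SE 0.06, adjusted p = 0.0326), and the others did not pass.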

How the data were processed

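Peri-implant bone of 12 rats was measured on 24 Affymetrix Rat Gene 2.0 ST arrays. The authors deposited a log2 value for each probe set, made by RMA (background correction, quantile normalization and summarization) with Expression Console 1.1.2, as given in the Methods and the submitters' processing notes. No hybridization date or batch is given in the sources used here. The values were not normalized again.

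The Ctrl and Li+ values of a rat, paired by the rat number in the labels, were averaged. After the group means were removed, the median correlation between the 2 arrays of a rat over probe sets was 0.279 (0.0675 to 0.569, 11 of 12 over 0.1) and that between arrays of different rats -0.128. Day 28 was compared with day 7, 6 rats each, by limma 3.58.1 (lmFit, eBayes; R 4.3.3) over 36495 probe sets, 190 control probe sets left out, with Benjamini-Hochberg adjustment at 0.05. Symbols come from the platform annotation and RefSeq. A gene is represented by its probe set with the highest mean over the 24 arrays. Signals, changes (day 28 minus day 7) and list medians are on the log2 scale, and ± is the SE of the fit. RMA compresses changes of dim genes, and the number of animals limits the precision.

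The comparison, the gene lists (38, of which 741 of 816 genes were measured) and the rules were chosen with earlier results of these data known. Genes named are the 15 largest rises and falls that passed above the median signal, the 5 smallest p in each direction, up to 6 passing genes of each list or up to 4 of the smallest p, and genes the study names over time. Study genes that did not pass are not all described. Genes outside this rule are marked, as are the genes that passed in every leave-one-out fit. The fit was also run on simulated animal values with independent noise for each probe set. These hold no variation shared between genes of a rat, so the run cannot show how single rats move the counts. Alternatives covered the unit of the fit, scaling, filter, features, variance model, the Methods' unpaired test (adjusted here, unlike in the Methods), each implant alone, muscle-high arrays and each rat left out. Tables used pandas 2.3.3 and numpy 2.4.6 and figures matplotlib 3.10.9 in Python 3.11.15.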

Additional observations from a re-analysis of the deposited data

Results flagged for a closer look

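Of 308 groups of 6 rats examined (each described gene and list score at each day), 12 had an animal whose gap to its neighbour took up more of the group's range than Dixon's critical value allows. By chance about 5% of groups would do so. At day 28, rat 27 was the lowest animal for Fn1 (12.49, others 12.66 to 12.74) and for Msr1 (8.774, others 9.439 to 9.685), and the highest for the interferon response score (0.6587, others -0.1985 to 0.09047). Rat 28 was the highest of day 28 for Il18bp (10.25, others 8.974 to 9.451) and for S100a4 (11.0, others 10.62 to 10.76), and rat 21 for Hmox1 (9.725, others 9.413 to 9.525). At day 7, rat 11 was the highest for Btla (9.142, others 8.798 to 8.882), rat 15 for Mb (7.589, others 6.878 to 7.141), and rat 5 the lowest for Trim46 (7.823, others 7.897 to 7.921). Among list scores of day 7, rat 5 was the highest for glycolysis and hypoxia (0.2827, others 0.01419 to 0.1059), rat 10 for the respiratory chain (0.1435, others -0.04846 to 0.02267), and rat 4 the lowest for neutrophil genes (-0.5699, others -0.038 to 0.1601).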

How the results depend on the processing

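The number of named genes that passed, 254 (74 higher and 180 lower at day 28), was the value most open to the processing. With all 24 arrays and the rat as a replicate block (still 6 rats a day) it was 1411 (446 higher, 965 lower), and the block lost none of the 254. With only probe sets above the median signal it was 784 (265 and 519), with only probe sets of 1 symbol 737 (241 and 496), with trended and robust variances 418 (130 and 288), and with each array centred on its median 281 were lower. The Methods' unpaired test with an adjustment added here passed 56 (16 and 40), Ctrl arrays alone 28 (2 and 26) and Li+ arrays alone 74 (25 and 49). Without the 3 muscle-high arrays 676 passed (259 and 417), without rats 10 and 23 138 were higher, and without rats 23, 27 and 29, which leaves 3 animals at day 28, 0 passed (0 higher, 0 lower). A change of at least 1.5-fold left 87. With each rat left out in turn the number ran between 21 and 780 (1 to 234 higher, 20 to 612 lower). The causes were not tested, beyond the smaller number of tests or animals where the setting is built that way. Of 2660 values of the 116 genes described under these settings, 0 changed direction. Of the 116 genes 95 had passed in the main fit, and the settings reuse the same arrays, so this is no separate check of direction. With a rat left out 578 values lost and 11 gained the call, and under the other settings 322 and 29. Of 874 list medians 5 moved by more than the spread between animals: cartilage to -0.33 and chemokines to -0.50 above the median signal, AP-1 genes to 0.09 without rats 23, 27 and 29, and skeletal muscle to -0.04 and -0.07 without the muscle-high arrays or rats. With 6 animals a day, a gene that did not pass is not shown to be equal between the days.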

Other observations

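Families that became visible only after the values were seen are given as values. Of 20 measured subunits of the V-ATPase, the proton pump that acidifies lysosomes and the resorption space under osteoclasts, 14 had a negative change, with a median of -0.23 on the log2 scale, and 6 passed, all lower at day 28 (against 0.991% of named genes lower). Atp6v0b had signals of 10.9, 11.0 and 11.1 (lowest, median, highest of 6 rats) at day 28 and of 11.3, 11.3 and 11.4 at day 7 (-0.34 ± 0.05, adjusted p = 0.0167), and passed with any rat left out. Atp6v1b2, Atp6v1h, Atp6v1f, Atp6v1e1 and Atp6v0e1 were 1.34-fold, 1.33-fold, 1.24-fold, 1.23-fold and 1.17-fold lower, without overlap between the days, each in 2 or 3 of 12 leave-one-out fits. The number of subunits that passed was 8 with the 3 muscle-high arrays dropped and 1 by the adjusted unpaired test.

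S100 proteins, small calcium-binding proteins, were lower in 13 of 15 S100a genes, and 4 passed (against 0.991% of named genes lower). By the adjusted unpaired test 3 passed. S100a10, the partner of annexin A2, had signals of 10.5, 10.6 and 10.7 at day 28 and of 11.0, 11.1 and 11.2 at day 7 (-0.43 ± 0.05, adjusted p = 0.00799). S100a4 and S100a6, known from fibroblasts and motile cells, changed by -0.53 ± 0.07 and -0.48 ± 0.07 without overlap, and S100a3 by -0.37 ± 0.07 with overlap. The Gimap GTPases of lymphocytes were higher in 7 of 7 genes, of which Gimap1 and Gimap7 passed (0.32 ± 0.06 and 0.37 ± 0.08). Of all named genes 0.407% rose, and 0 Gimap genes passed the adjusted unpaired test. Of 363 microRNA genes on the array, 0 passed by limma or by the adjusted unpaired test, and the smallest adjusted p by limma was 0.0897. At an unadjusted p under 0.05 there were 30 (24 of them lower), against 21.9% of all named genes. Only 69 of the 363 had a mean signal higher than the probe set median, against 61.2% of all named genes. The count therefore does not show that microRNAs were unchanged.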
